A study of Mus musculus with 8 samples.

Results

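The CpGs described here are the most deeply read of the autosomes (chromosomes 1 to 19). They were chosen by depth, as CpGs with over 1000 reads in at least 1 of 4 methylation libraries, and those within 1 kb of each other were joined into loci. Of 19788257 autosomal CpGs listed in any library, 946 passed, and they formed 28 loci on 12 chromosomes. Methylation had been profiled genome-wide by whole-genome oxidative bisulfite sequencing (WGoxBS), which reads 5-methylcytosine as C and unmethylated cytosine as T, in spleen cells of C57BL/6J mice aged 6 to 8 weeks. The 4 groups were resting B cells (CD43-) of females, resting B cells of males, naive CD4+ T cells of females and naive CD4+ T cells of males. The labels name no engineered allele and no treatment, and each sample pooled cells of several animals. There were 2 samples in each group, but both name the same deposited file, so each group counts as 1 library, with no spread of its own.

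Tandem repeats are the classic case of sequence that a genome assembly holds in fewer copies than the chromosomes do. Reads from the copies that were not assembled then align to the few that were, and the level recorded at such a CpG is an average over copies. In the mouse, the major satellite fills the pericentromeric heterochromatin and the minor satellite forms the centromere, where the protein CENP-B binds a short motif, the CENP-B box. Ribosomal DNA (rDNA) is another tandem array, whose units encode 18S and other RNAs of the ribosome, and only part of its copies is active in a given cell. In a bisulfite read, a copy that carries TG in place of a CpG cannot be told apart from an unmethylated CpG.

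By direct sequence match the loci formed 11 groups, namely 16 satellite loci, 2 pairs and 8 loci that matched no other. Loci were further joined where pieces of both lie within 1 kb of each other elsewhere in the reference, a step chosen after the data had been seen, which left 6 groups: satellite, rDNA (7 loci), a pair and 3 single loci. Their sequences are shown first because the levels below turn on them. All are from GRCm38, on the plus strand. The major satellite unit is 234 bases long. The copy shown has the most CpGs among units that start at a deep CpG, and lies at chr9:3000457-3000690, with its 8 CpGs in capitals:
major satellite unit: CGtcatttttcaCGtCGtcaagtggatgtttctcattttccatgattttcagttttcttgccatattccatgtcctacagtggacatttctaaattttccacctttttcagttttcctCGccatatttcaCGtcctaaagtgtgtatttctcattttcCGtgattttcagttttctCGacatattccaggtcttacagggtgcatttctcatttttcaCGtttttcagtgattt
The minor satellite unit is 120 bases long, and the copy shown is at chr2:98662498-98662617. Capitals mark the CENP-B box (NTTCGNNNNANNCGGGN, searched on both strands), which holds 2 of the 4 CpGs of this unit and which 0.00235% of all windows of 120 bases on the autosomes contain:
minor satellite unit: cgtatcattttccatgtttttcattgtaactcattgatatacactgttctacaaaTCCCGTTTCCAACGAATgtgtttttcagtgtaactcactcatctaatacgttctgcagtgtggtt
Next come 2 stretches of 62 bases from major satellite copies, at chr9:3006800-3006861 and chr9:3004227-3004288. The unit is built of sub-repeats of about 58 bases, and the stretches are 2 of them, around positions 177 and 59, which differ by 3 edits. The CpGs in capitals had opposite levels:
position 177: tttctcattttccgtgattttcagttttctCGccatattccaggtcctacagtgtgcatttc
position 59: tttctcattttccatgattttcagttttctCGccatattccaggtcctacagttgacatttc
From the rDNA group, a piece of 113 bases at chr6:3201422-3201534 is set beside its counterpart within the 18S gene, chr17:39847333-39847445, with CpGs in capitals. They differ at 4 bases (96.5% identity), and the piece on chromosome 6 has 12 CpGs against 10:
chromosome 6: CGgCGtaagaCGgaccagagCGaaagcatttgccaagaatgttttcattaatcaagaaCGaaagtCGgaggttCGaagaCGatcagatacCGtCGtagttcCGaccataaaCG
chromosome 17: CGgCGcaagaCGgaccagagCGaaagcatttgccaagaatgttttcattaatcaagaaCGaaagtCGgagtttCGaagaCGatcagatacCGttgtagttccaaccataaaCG
The most CpG-rich locus of this group lies in an intron of Zc3h7a at chr16:11144012-11144222 and has 37 CpGs in 211 bases:
Zc3h7a: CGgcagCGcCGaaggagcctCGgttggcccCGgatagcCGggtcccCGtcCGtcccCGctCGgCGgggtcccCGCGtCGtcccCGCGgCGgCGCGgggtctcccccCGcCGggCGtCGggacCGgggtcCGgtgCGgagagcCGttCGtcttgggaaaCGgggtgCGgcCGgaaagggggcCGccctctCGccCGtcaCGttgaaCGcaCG
The last sequences are from loci of other kinds. In an intron of Aida, at chr1:183299284-183299405, a lone deep CpG (capitals) was the locus that differed most between B and T cells. Units 3 and 4 of a tandem repeat of 44 bases, at chr4:118547960-118548003 and chr4:118548004-118548047, show the CpG that part of the units lack:
Aida: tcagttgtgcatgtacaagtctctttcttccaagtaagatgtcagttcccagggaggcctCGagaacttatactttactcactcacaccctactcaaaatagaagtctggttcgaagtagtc
chromosome 4, unit 3: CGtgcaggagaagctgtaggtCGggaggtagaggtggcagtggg
chromosome 4, unit 4: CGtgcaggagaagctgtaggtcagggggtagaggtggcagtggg

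The labels matched the methylation of lineage promoters. All 6 B cell genes examined, among them Cd79a of the B cell receptor, were lower within 1 kb of their starts in both B cell libraries than in both T cell libraries, and all 8 T cell genes, among them Cd3e of the T cell receptor, were lower in both T cell libraries. Of 5 genes of other spleen cells, 2 were lower in B cells and 2 in T cells. The libraries had a median of 14 to 17 reads per listed autosomal CpG. Levels at the loci rested on far more, and a 95% Wilson interval, which covers counting error only, was narrow where reads were many. For the locus over the rRNA genes of chromosome 17 it ran from 28.4% to 28.6% in female B cells. Reads were summed over the CpGs of a locus, so a read across several CpGs counted more than once. The interval is therefore too narrow at loci of several CpGs.

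The 28 loci covered 38810 bases and held 2.93% to 3.28% of all reads at autosomal CpGs. The satellite group had 16 loci, 11 of all 28 loci lay on chromosome 9, and 22 overlapped an annotated gene. The deepest CpG of all, at the predicted gene Gm10800 (exon, chr2:98666262-98667326), had 413869 reads in B cells of females, 403123 in T cells of females, 394635 in B cells of males and 407473 in T cells of males. It exceeded the library median 25428-fold as a mean of the 4 libraries. By library this was 24345 and 28188 times in B cells of females and males, and 23713 and 25467 times in T cells. The next in order were an intron of the non-coding Gm33838 (chr9:35305242-35305583, 6838 times the median) and the loci over Gm26870, Gm10722 and Gm11168 (chr9:3000031-3004797, 4281 times), over Gm26870, Gm10718 and Gm10717 (chr9:3022101-3029856, 4241 times) and over Gm10801 (chr2:98662264-98663966, 3998 times). Behind them came an intergenic locus at chr12:3109883-3110100 (2917 times), 22842 bases from Gm9075, the locus in Gm26870 and Gm11168 at chr9:3006405-3007654 (2037 times), Gm21738 (chr14:19415786-19419305, 1354 times), the locus over Gm26870, Gm10721, Gm10720 and Gm10719 (chr9:3013800-3018713, 1321 times) and an intron of the adhesion molecule gene Chl1 (chr6:103649167-103649288, 1245 times). All 10 were satellite. The other loci were shallower, down to 60.4 times the median in an intron of Sfi1, which encodes a centrin-binding protein of the centrosome.

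At the edge of the choice, the CpGs just inside had 1002 reads (chr11:3193637, in Drg1 and Gm12735) and 1003 reads (chr16:11144012, in Zc3h7a) in their deepest library. Those just outside had 1000 reads each (chr11:3184881 in Sfi1 and chr11:3193340 in Sfi1 and Drg1). Both CpGs outside (85.4% to 96.1% over the libraries) and the Drg1 CpG inside (94.0% to 95.2%) were methylated like the loci beside them. The Zc3h7a CpG was mixed like its locus but higher in every library, at 32.8% to 42.0% against 21.4% to 25.9%. In all 4 libraries at once, 611 of the 946 CpGs had over 1000 reads. A list of 324 rRNA genes held those annotated as rRNA on the autosomes or the mitochondrial genome and a few rDNA genes of other annotation, and 3 of it lay in a locus. These were CT010467.1, annotated as rRNA, and Gm26917 and Gm42418, which are on the list by name and annotated as lincRNA. Of 3307 snRNA, snoRNA, scaRNA and miscellaneous RNA genes 0 did. The share of all genes that lie in a locus was not computed, so these counts are descriptions only. The 37 mitochondrial genes could not lie in a locus, because loci were formed on the autosomes alone. miRNA genes were on neither list.

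The level, the share of reads that kept a C, was not part of the choice, and it set the rDNA loci apart from the rest. On the mean of the 4 libraries, 20 loci were methylated (over 80%), 8 were mixed (20% to 80%) and 0 were unmethylated (under 20%). Satellite loci lay between 83.5% and 91.8%, rDNA loci between 24.1% and 30.5%, and no locus lay between 30.5% and the 57.9% of the Aida CpG. The lowest locus was that in Zc3h7a and the highest a stretch of 3 CpGs in an intron of Gm26870 (chr9:3010014-3010055). Single CpGs were more varied than their loci, with 72 of 946 under 20%, 536 between the bounds and 338 over 80%. The range over the libraries was 0.457 to 1.77 points at satellite loci, 4.38 to 7.61 points at rDNA loci and 10.2 points at the Aida CpG.

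**Figure D1:**
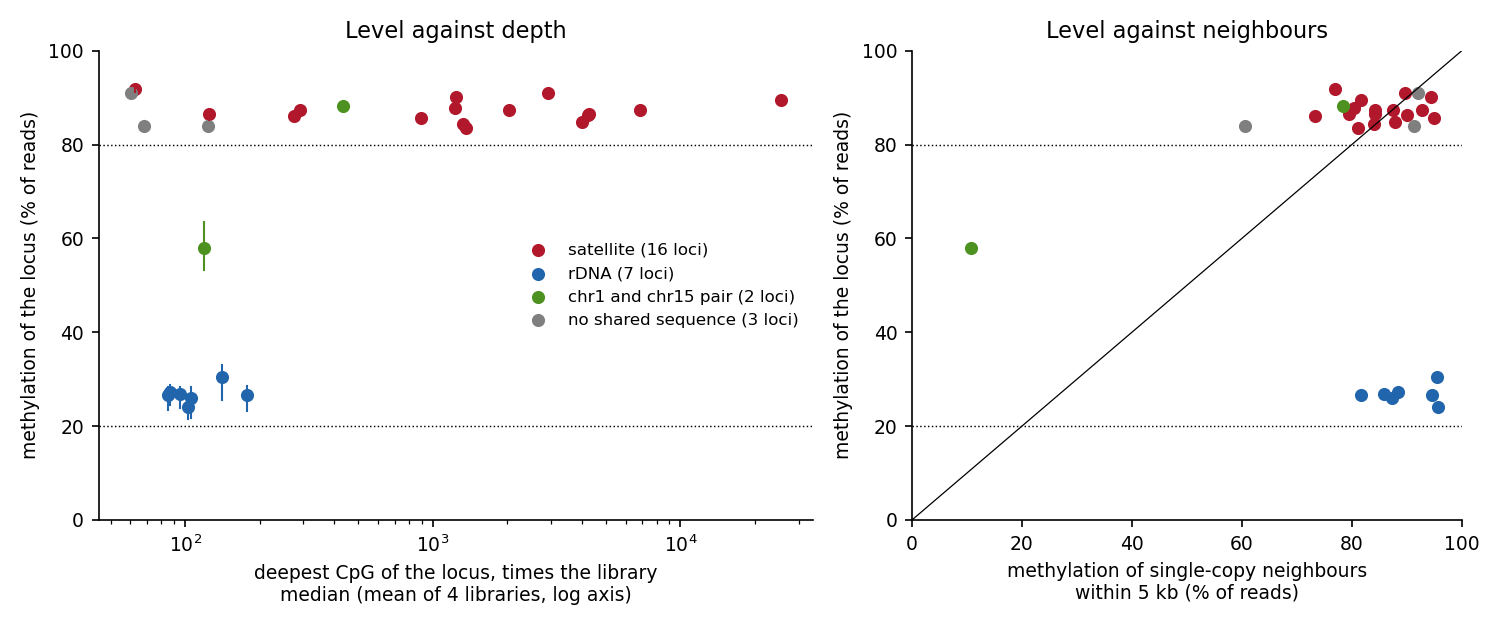
Left, methylation of each locus in % of reads (mean of the 4 libraries, line from the lowest to the highest library) against the depth of its deepest CpG as multiples of the library median on a log axis. Right, the same levels against those of single-copy neighbours within 5 kb, with the line of equality. Dotted lines mark 20% and 80%. Satellite loci lie at 83.5% to 91.8% at every depth, and the rDNA loci lie at 24.1% to 30.5% beside neighbours at 81.7% to 95.6%.

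In the satellite group, most CpGs were close in level, and a few places in the repeat unit stood apart. Unit positions and the sequence variants around a CpG were looked at after the levels were known, and are given as descriptions. Of its 378 CpGs, 349 aligned to the major unit (14 loci) and 18 to the minor unit (4 loci) with 80% identity or more over 118 bases, and 11 aligned to neither. The median over CpGs was 91.8% at position 1 of the major unit (43 CpGs), 90.4% at position 119 (63 CpGs) and 89.8% at position 131 (45 CpGs). Position 219 stood apart, at a median of 72.5% over 53 CpGs in 12 loci. Summed over its reads it was 73.6% in B cells of females, 76.1% in T cells of females, 75.5% in B cells of males and 75.9% in T cells of males, so the lower level was present in every library. At that position, 2 of the 53 CpGs were near the level of the rest of the unit, 88.7% at chr2:98662942 and 89.6% at chr2:98666622.

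Position 59 was almost unmethylated, given windows longer than a sub-repeat (with 62 bases, 8 methylated CpGs also fell there and the median was 88.9%). All 5 CpGs there, in 3 loci, lay at 0.971% to 3.41%, with 1447 to 5687 reads over the libraries. Of these, 4 shared the sequence shown above letter for letter, between chr9:3004257 and chr9:3018085, and the fifth, at chr14:19416911 in Gm21738, was at 1.87%. At position 177 the 43 CpGs lay at 82.8% to 97.0%, and the 4 with the sequence shown above at 88.5% to 91.9%. More widely, 223 satellite CpGs fell into 49 sets with identical sequence over 30 bases on either side. Within a set the levels differed by a median of 2.53 points (0.034 to 13.0), and in 41 of the 49 sets by under 5 points. All satellite CpGs ran from 0.971% to 97.0%, but their quartiles were 87.3% and 91.3%. With most CpGs that close together, small differences within a set do not show that the level follows the sequence.

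The printed major unit holds TG, not CG, at position 59. Among 300 reference copies alike in 80% of the bases over a whole unit, 3.67% held CG and 77.3% held TG at the place of those 4 CpGs. At the place of the 4 CpGs at position 177, 74.1% of 293 copies held CG and 15.7% held TG. At position 71 CG was likewise rare, in 3.04% to 15.8% of the copies at the 7 CpGs with at least 5 copies, and these lay at 75.8% to 93.2%. Of the satellite CpGs with at least 5 copies, 16 were at places where under 20% of the copies held CG. They ran from 0.971% to 93.2%, with 6 under 20%, of which 5 were those at position 59. Where 20% of the copies or more held CG, 0 were under 20%. The seventh satellite CpG under 20%, chr2:98662903 at 2.50%, had no other copy. Above that share the level did not rise with it. At position 219, with its median level of 72.5%, a median of 83.7% of the copies held CG and 6.12% TG. At positions 16 and 131 a median of 49.6% and 49.7% of the copies held CG, and the median levels were 90.5% and 89.8%. How far reads from copies without the CpG entered these levels was not tested.

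In the minor satellite, both CpGs of the CENP-B box were methylated. The 12 CpGs inside a box ranged from 78.2% to 94.4%, and in no library did their summed level leave 90.7% to 91.3%. Outside a box there were 6 CpGs. Of these, 3 at positions 59 and 68 of the minor unit lay within the range inside a box, at 86.5%, 90.1% and 93.9%, and the other 3, at positions 12 and 104, lay below it. The lowest, at position 104 (chr2:98662601), was at 35.7%. The 2 CpGs at that position were together at 36.5% and 36.1% in B cells of females and males, and at 38.1% and 37.3% in T cells. The locus in the Chl1 intron, made up of minor satellite, was at 90.1% and its sequence matched 75 places on the Y chromosome among 98 in the reference. Its deepest CpG had 21765 reads in B cells of females, 18171 in T cells of females, 20159 in B cells of males and 19034 in T cells of males, and per CpG over the library mean the locus had 795 and 908 times in B cells of females and males, and 664 and 707 times in T cells. On that scale males lay above females in both cell types, as they did at 14 of the 16 satellite loci.

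**Figure D2:**
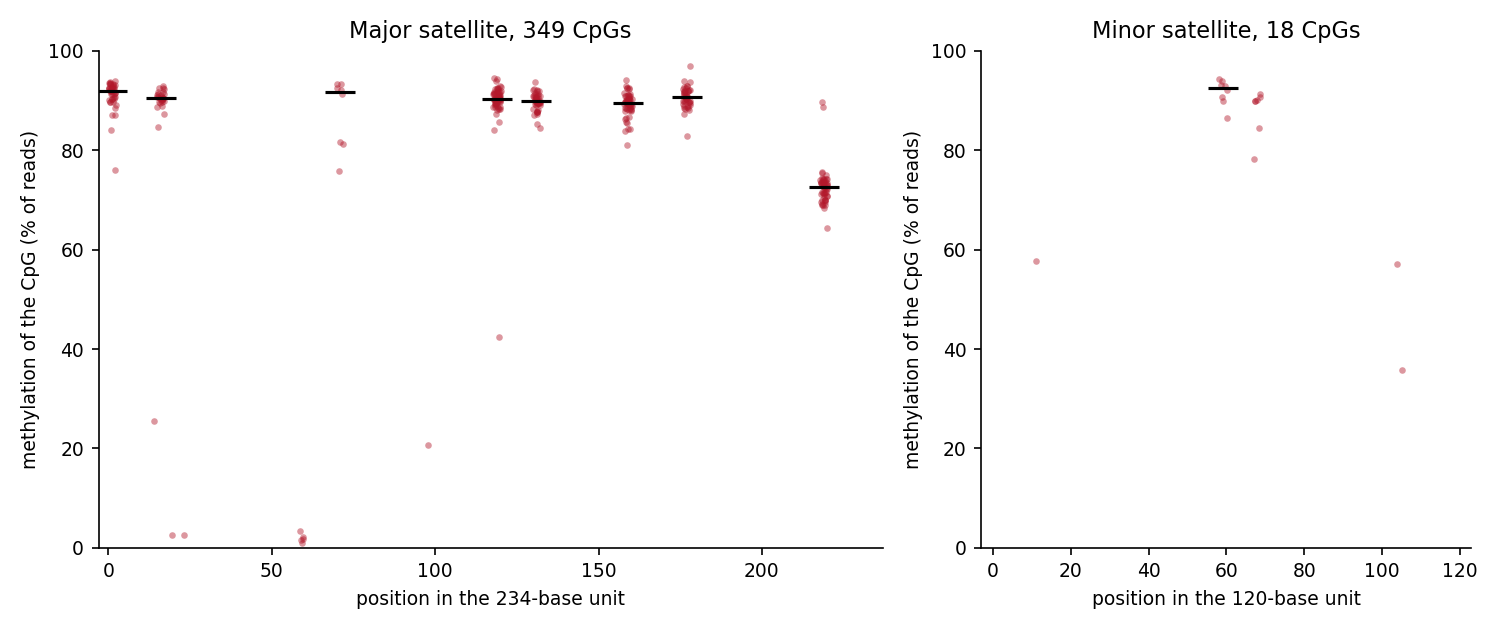
Methylation of each satellite CpG in % of reads (mean of the 4 libraries) against its position in the major (left) and minor (right) satellite unit in bases. Points are CpGs and bars are medians of positions with 8 CpGs or more. Position 219 of the major unit lies at a median of 72.5%, and the 5 CpGs at position 59 lie at 0.971% to 3.41%.

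The rDNA group was mixed at every locus, although 65 of its 529 CpGs lay under 20%. It comprised the long locus over Gm26917, CT010467.1, Gm42418 and AY036118 (chr17:39843079-39848732, 416 CpGs) and 6 short loci. These were in an exon of Lars2, which encodes the mitochondrial leucyl-tRNA synthetase (chr9:123461897-123462111), in introns of Gphn, which encodes the synaptic scaffold gephyrin (chr12:78350945-78351055), of Zc3h7a with the miRNA gene Gm23935, and of Cmss1 and Filip1l (chr16:57391408-57391618), and in intergenic stretches at chr3:5860421-5860686 and chr6:3201422-3201534. By direct match, only the piece on chromosome 6 shared sequence with chromosome 17. Lars2 and Gphn matched each other alone. These and the remaining 3 loci entered the group only by pieces that lie near each other elsewhere in the reference, for example at chr9:3257784-3261149. The Zc3h7a locus had no piece there, and was joined by pieces near those of Lars2, for example at chr1:100180097-100180429. Counted over each locus with flanking bases on either side, there were 3.65 to 10.4 CpGs per 100 bases, against 1.18 to 2.27 at satellite loci. At the 6 short loci the flanks make up most of that stretch, so the locus itself can be denser, as the Zc3h7a sequence above is.

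The locus on chromosome 17 was at 28.5% in B cells of females, 26.9% in T cells of females, 27.9% in B cells of males and 23.1% in T cells of males. In bins of 250 bases the mean of the libraries ran from 23.4% to 30.5% along it. It was 26.7% before the 18S gene (250 CpGs), 27.1% within 18S (chr17:39846354-39848202, 110 CpGs) and 24.8% after it (56 CpGs), as means of the 4 libraries. Single CpGs of the locus ran from 14.1% (chr17:39845536) to 48.3% (chr17:39844341) as means of the 4 libraries. At the 10 CpGs that the piece on chromosome 6 shares with 18S, the piece was higher by 0.270 to 3.48 points (median 1.46). The 2 CpGs that only the piece has, at chr6:3201515 and chr6:3201523, were at 27.7% and 31.0%, inside the range of the others there (20.3% to 39.0%). A single CpG of the group was almost unmethylated, chr12:78351054 at 1.16%, where 5 of 6 reference copies held TG. Among rDNA CpGs with at least 5 copies, the median level was 22.9% where 20% to 50% of the copies held CG (15 CpGs). It was 26.3% at 50% to 80% (71 CpGs) and 23.5% at 80% or more (27 CpGs, 6 of them under 20%).

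**Figure D3:**
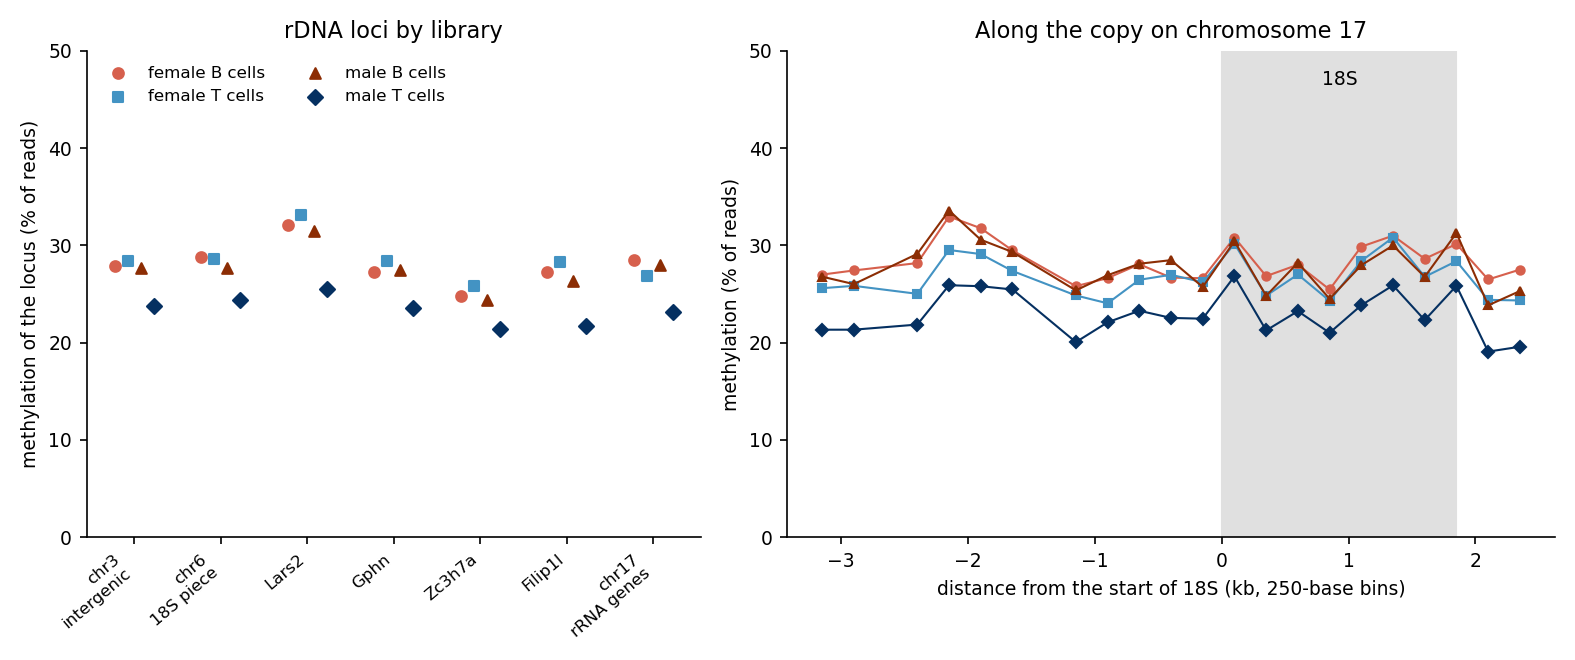
Left, methylation in % of reads of the 7 rDNA loci in each library. Right, methylation along the locus on chromosome 17 in bins of 250 bases, by distance in kb from the start of 18S (grey), in each library. Male T cells are the lowest library at all 7 loci, at 21.4% to 25.5%.

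Outside these groups were 5 loci. The repeat on chromosome 4 (chr4:118547872-118548687, 17 CpGs), 3828 bases from Tmem125, was at 84.1% in B cells of both sexes, and at 83.9% and 83.7% in T cells of females and males. It is built of units of 44 bases, of which 2 are shown above. At 10 of its CpGs every copy of the unit held CG, and their levels were 81.3% to 92.7%. At 6 others 36.4% of the copies held CG and 63.6% held CA, and these were lower, 66.2% to 80.6%, without overlap. A locus at chr15:75086664-75086940, 7570 bases from Gm28502, was at 88.2% with a deepest CpG at 435 times the median, and it was joined to the Aida CpG only because pieces of both lie near each other at 1 other place, chr19:61264014-61265749. The loci in Sfi1 (chr11:3184908-3185007) and over Sfi1, Drg1 and Gm12735 (chr11:3193164-3194106) were at 90.9% and 83.9%, and the sequence around the deepest CpG of each matched 1 place in the reference, its own. In the latter, the CpG at chr11:3194105 was at 47.4%, below the 78.2% to 95.2% of its other 8.

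Single-copy neighbours were CpGs within 5 kb of a locus at 0.5 to 2 times the median depth in every library, 976 in all. They were chosen by depth alone, and their sequence was not checked for other copies. Every rDNA locus was lower than its neighbours, by 55.1 to 71.5 points (median 61.4). Satellite loci went both ways, from -9.29 to 14.9 points (median 1.74), with 6 of 16 below their neighbours. The -9.29 rests on 4 neighbours and the 14.9 on 14. From chr9:3000031 to chr9:3038241 the neighbours lie between or beside satellite loci, and whether they are satellite themselves was not tested. Neighbours of the Aida CpG were at 10.7% and the CpG itself at 57.9%. The sequence around this CpG matched 23 places in the reference, and under 20% of its reference copies held CG there. How far reads from copies without the CpG entered its level was not tested. Over all 28 loci the median difference from the neighbours was -0.593 points, with 15 loci below them. This median moved with the settings, to -1.38 without T cells of females, -0.933 without T cells of males and -4.81 with neighbours at 0.75 to 1.5 times the median depth. In single libraries this median was -2.40 and -1.69 in B cells of females and males, and -0.450 and -0.678 in T cells. The 4 libraries cannot reach p under 0.05 in an exact test, so none was made.

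B and T cells were compared at each locus together with all 1-kb tiles of the autosomes in 1 fit (edgeR's quasi-likelihood test on methylated and unmethylated reads, Benjamini-Hochberg adjustment). A call needed an adjusted p under 0.05 and a difference of at least 20 percentage points. Of 1497632 features 3.21% were called, and of the 28 loci 0 were. Without the minimum difference 9.51% of the features passed and again 0 loci, with 1 locus at an unadjusted p under 0.05. limma called 0 loci, with 0 at an unadjusted p under 0.05. The spread in this fit was a trend on abundance drawn from all features, and it was extrapolated at the loci. Their p values depend on it. At the rDNA locus of chromosome 17 the unadjusted p was 0.955 with the trend and 0.199 without (edgeR's quasi-likelihood test). A lack of calls at the deep loci therefore does not show that B and T cells are equal there.

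The locus nearest to a call was the Aida CpG, where, as given above, few reference copies held CG. In B cells it was at 54.2% in females (95% Wilson interval 52.0% to 56.3%) and 53.2% in males (50.9% to 55.5%), and in T cells at 63.4% in females (61.2% to 65.5%) and 61.0% in males (58.8% to 63.2%). Both T cell libraries lay above both B cell libraries. The mean difference, B minus T, was -8.51 points (edgeR's quasi-likelihood test, Benjamini-Hochberg adjusted p = 0.265). Its 98 neighbours went the other way, with 11.6% and 14.2% in B cells and 8.28% and 8.64% in T cells of females and males, and did not pass (edgeR's quasi-likelihood test, adjusted p = 0.119) unless the abundance trend was left out (adjusted p = 0.0262). Aida encodes a protein that binds the scaffold protein axin.

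At satellite loci, B cells of females were the lowest library at 13 of 16. In females all 16 loci were higher in T than in B cells and in males 13, the 13 that were higher in both sexes. The mean difference, B minus T, ran from -0.732 to 0.282 points over these loci, and none passed edgeR's quasi-likelihood test (smallest adjusted p of the group 0.924). The 3 exceptions in males included both loci made only of minor satellite. Within the major unit, position 219 was higher in T cells of both sexes at 45 of 53 CpGs, against 223 of 349 over the whole unit, with B minus T at -2.56 points in females and -0.40 in males over its summed reads. Over all CpGs of the group, B minus T was -0.75 points in females and -0.23 in males. The loci share their source sequence, so they are not independent of each other.

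At rDNA loci, the male T cells were the lowest library at all 7 and at 508 of 529 CpGs. The Lars2 locus was at 32.0% and 31.5% in B cells of females and males, and at 33.1% and 25.5% in T cells. The Zc3h7a locus was at 24.8% and 24.4% in B cells, and at 25.9% and 21.4% in T cells. The other 3 libraries lay close together at each locus, and 5 of 7 loci were higher in T than in B cells in females while 0 were in males. The mean B minus T difference was 0.960 to 3.20 points, and none passed edgeR's quasi-likelihood test (smallest adjusted p of the group 0.943). A contrast chosen after seeing the data, which asks whether B minus T differs between the sexes, called 2e-04% of the features and 0 loci (edgeR's quasi-likelihood test), with 0 at an unadjusted p under 0.05. Females against males called 0.001% of the features and 0 loci, with 0 at an unadjusted p under 0.05, and limma called 0. Loci of 1 group share sequence or lie near shared pieces, so they are not independent, and each group was 1 library, so cell type, sex and the pool of animals cannot be told apart in the male T cell value.

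Among the neighbours, 0 of 27 sets reached 20 points, so 0 were called, against 3.21% of all features. On the adjusted p alone 2 neighbour sets passed, against 9.51% of all features. Both were lost with limma (adjusted p = 0.404 on chromosome 15 and 0.197 at Chl1). Those of the locus on chromosome 15 were at 84.5% and 81.7% in B cells of females and males, and at 72.9% and 74.2% in T cells (edgeR's quasi-likelihood test, adjusted p = 0.0130). The locus itself differed by 0.597 points. Those of the Chl1 locus were at 97.2% and 95.8% in B cells, and at 93.3% and 91.1% in T cells (edgeR's quasi-likelihood test, adjusted p = 0.00462), and the locus differed by 0.25 points. Both sets were picked by their p value, and 2 of 27 is no larger a share than that of all features. No pattern of neighbours beside repeats is read from them.

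Depth, which chose the loci, also differed between the B and T cell libraries and is given as a description. With 1 library per group, cell type and library cannot be told apart in it. In reads per CpG over the mean of the library, T cells had fewer reads than B cells at all 16 satellite loci, at 0.835 to 0.984 times the B cell value in females and 0.779 to 0.895 times in males. At rDNA loci T cells had 1.10 to 1.28 times the B cell value in females and 0.994 to 1.19 times in males. The repeat on chromosome 4 had 1.07 times in females and 1.43 times in males. Its deepest CpG had 2249 and 1183 reads in B cells of females and males, and 2452 and 2135 in T cells, so B cells of males had the fewest.

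**Figure D4:**
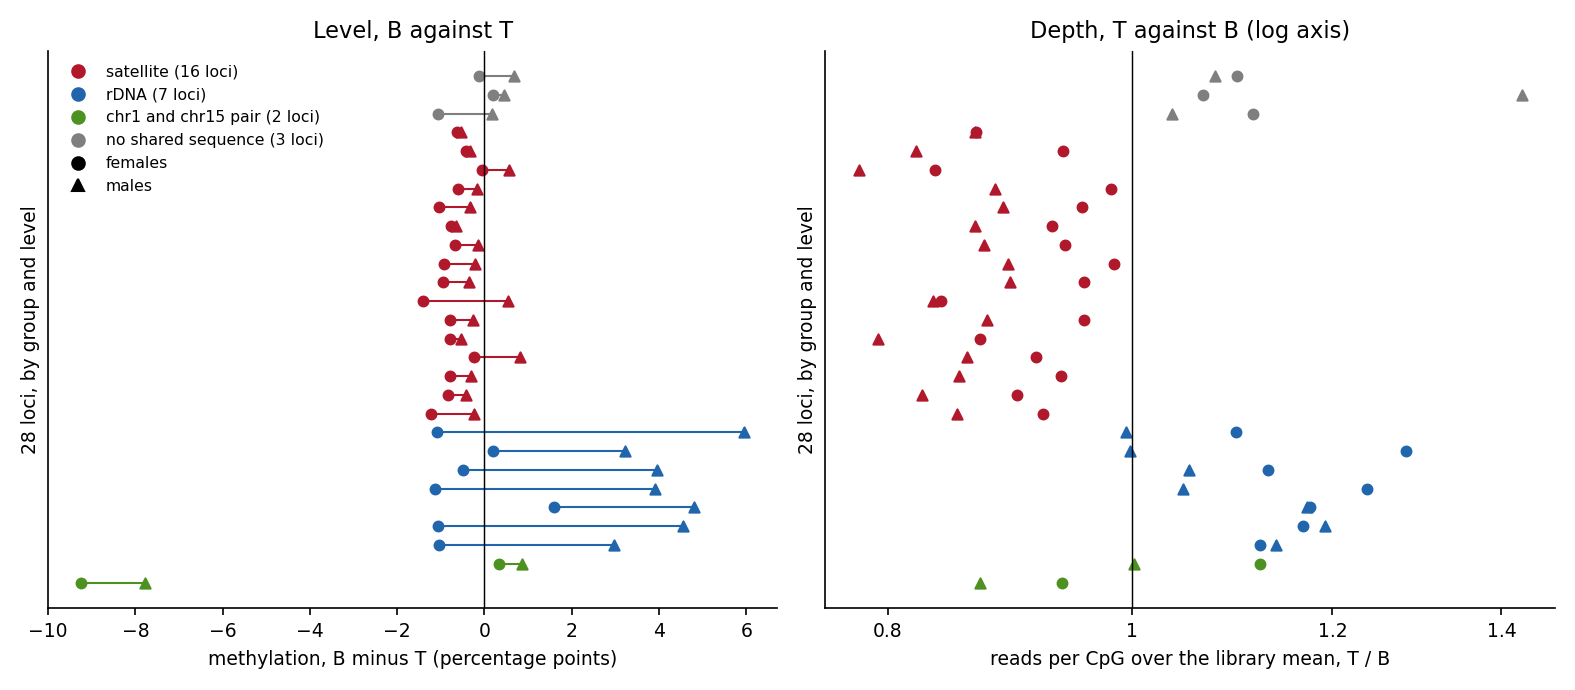
Left, methylation in B minus T cells in percentage points at each of the 28 loci, with females as circles and males as triangles. Right, reads per CpG relative to the library mean in T over B cells on a log axis. On the left, all 16 satellite loci lie below 0 in females and 13 in males, rDNA loci lie above 0 in males, and the Aida CpG lies farthest from 0. On the right, satellite loci lie below 1.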

How the data were processed

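Genomic DNA of 8 samples in 4 groups (female and male, B and T cells) had been sequenced by WGoxBS. The submitters' processing notes name Trim Galore, FastQC, Bismark 0.13.1 and the build mm10, with no removal of duplicate reads given in the sources used here. For each CpG with at least 5 reads the authors deposited the methylation level as a fraction, rounded up to 3 decimals, and the read count, with both strands joined. Both samples of a group share 1 file, so values have no standard deviation, and 0 columns of per-sample values were left unused. All 946 deep positions lay on a CG of GRCm38.

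The loci, the gene lists and the tests were chosen with earlier results of these data known. Methylated reads were recovered from level and count. Over 1000 reads several whole numbers give the same level, and the middle one was taken (error up to 0.05 points). Libraries held 280919817 to 354634149 reads at CpGs. Wilson intervals (95%) cover counting error only, since reads carry no molecular identifiers. At loci of several CpGs they understate it, because a read is counted at each CpG that it covers.

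Loci, neighbour sets and 1-kb tiles (at least 5 CpGs and 20 reads in every library) entered 1 edgeR 4.0.16 fit in R 4.3.3, with terms for library, methylation, cell type and sex and a common dispersion (0.00775) from 20000 tiles. The quasi-dispersion was shrunk fully to a trend on abundance, which is extrapolated at the loci. Alternatives were limma 3.58.1, other thresholds and leaving out each library. Sequences were matched with blastn 2.17.0 (80% identity over 100 bases, window of 301 bases at the deepest CpG, primary assembly). Pieces that lie side by side came from a looser search, with whole loci of under 200 matches, 75% identity and hits of at least 60 bases. The major and minor units were taken as the windows with most CpGs that start at a deep CpG and match the next window at 80% or more, with the lengths from comparing loci with themselves. Genes came from GENCODE M21 and 18S from RefSeq. Loci named were the 10 deepest, the deepest of each sequence group and the deepest that share sequence with no other, those nearest to a call or the threshold, and the lowest and highest. The other rDNA loci and the single CpGs were named after their values had been seen.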

Additional observations from a re-analysis of the deposited data

Results flagged for a closer look

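CpGs over 1000 reads also lay outside the autosomes, in data that the comparisons do not use. On mitochondrial DNA there were 34, with up to 1172 reads, and their level was 0.216% and 0.755% in B cells of females and males, and 0.0760% and 0.0661% in T cells. On scaffolds that are not placed on a chromosome there were 214, on 2 scaffolds, with up to 9118 reads. Their level was 84.3% and 85.0% in B cells, and 84.8% and 84.9% in T cells, in the range of the satellite loci, with 164 CpGs over 80%, 48 between 20% and 80% and 2 under 20%. The X and Y chromosomes had 0 each.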

How the results depend on the processing

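Over 500 reads there were 44 loci, over 2000 reads 445 CpGs, and 611 CpGs passed in all 4 libraries. Joining within 200 bases gave 67 loci and within 5 kb 18. Bounds of 10% and 90% gave 24 mixed and 4 methylated loci, and bounds of 25% and 75% gave 1 unmethylated locus, that in Zc3h7a. Unweighted means of the CpG levels gave 9 mixed and 19 methylated loci, with the satellite locus chr9:3013800-3018713 at 79.97%. The median difference from the neighbours was -4.81 points with neighbours at 0.75 to 1.5 times the median depth (21 loci), -3.09 within 2 kb (27 loci) and -2.87 for unweighted means, and the cause was not tested. Leaving out each library gave -1.38 to -0.501. The level at position 59 of the major satellite unit depends on the length of the window aligned to the unit: with 62 bases, little more than a sub-repeat, 9 CpGs moved, 8 of them methylated ones that came to position 59 (median 88.9%), while with 236 bases 1 CpG moved and position 59 stayed at 1.87%. Joining loci by pieces that lie side by side, chosen after seeing the data, reduced 11 sequence groups to 6. The counts of loci called between B and T cells and between the sexes were 0 in every alternative run, leaving out each library and, added after seeing the data, a fit without the abundance trend (smallest adjusted p 0.100, the Aida CpG) included. Leaving out a library gave adjusted p values of 0.286 to 0.723 there. No paired analysis was possible because the groups share no replicate numbers. With 1 library per group, the spread comes from all tiles together, and a p value says nothing of how animals of a group vary.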
